A study of Danio rerio with 6 samples.

Results

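The nucleosome remodelling and deacetylase (NuRD) complex is described here through 10 of its subunit genes, measured by RNA-seq in zebrafish homozygous for the fr105 allele of *ikzf1* and in wild-type fish. The genes were chosen by name, as the subunits *chd4a*, *chd4b*, *hdac1*, *mta2*, *mta3*, *mbd2*, *mbd3a*, *mbd3b*, *rbb4* and *gatad2b*, without use of a measured value, although earlier results of these data were known. They are 10 of the 32105 genes in the count table, and 9 of them are among the 16630 genes with enough counts to be tested. The mutants comprise 3 homozygous fr105 libraries (replicates 1 to 3), which are set against 3 homozygous wild-type libraries (replicates 4 to 6), all labelled as whole body at 5 days post fertilisation (dpf). The labels give the strain of both groups as mixed wild-type strains, and the methods name Tüpfel long fin/Ekkwill. The fr105 line carries 1 CRISPR/Cas9 deletion across the exons for the N-terminal zinc fingers of Ikzf1. According to the paper it shifts the reading frame and leads to an early stop. The truncated protein keeps only zinc finger 1, and the C-terminal zinc fingers for protein interaction are lost as well. All mutant values come from this single allele. According to the methods, 3 individual fish per genotype were used at 5 dpf. The p-values below measure the spread between the 3 libraries of each group, which is a spread between animals only if each library is 1 fish.

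NuRD joins a chromatin-remodelling ATPase of the Chd family to a histone deacetylase, and removes acetyl groups from histones while it shifts nucleosomes. The Mta proteins form the scaffold that holds the deacetylase, the histone chaperone of the Rbbp4 type binds histones, the methyl-CpG-binding-domain proteins Mbd2 and Mbd3 exclude each other in mammalian complexes, and the Gatad2 proteins link the Mbd protein to the ATPase. In mouse lymphocytes Ikaros, the product of *Ikzf1*, is found in complexes with NuRD and its ATPase Mi-2beta (Chd4), so that the levels of its genes are of interest where Ikzf1 is truncated.

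The libraries held between 34759504 and 38383935 counts in fr105 mutants and between 38177112 and 39404324 counts in wild type. Levels are given as CPM, counts scaled to library size by the TMM method of edgeR, which are not corrected for gene length, so each gene is compared between groups and not with other genes. The targeted gene *ikzf1* (ENSDARG00000013539) had 53145, 44700 and 29104 counts in fr105 mutants, against 8746, 6776 and 10579 counts in wild type (log2 fold change 2.37, standard error (SE) 0.23, adjusted p = 0.000362, edgeR quasi-likelihood test). The counts cover the gene as a whole and do not show the deletion itself. Defining markers of several tissues of the labelled whole body were at or near 0. None of the 4 matched skeletal muscle genes exceeded 8 counts in any library and 2 of them had no count, the 3 matched lens genes had no count in any library, and the 3 matched neuronal genes reached at most 5 counts. The 4 matched larval globin genes reached at most 17 counts, whereas 7 erythroid markers including the adult globins *hbaa1* and *hbba1* summed to between 25021 and 30496 CPM in fr105 mutants and between 10098 and 21675 CPM in wild type. The 3 liver markers summed to between 2.63 and 5.14 CPM in fr105 mutants and between 1.40 and 13.7 CPM in wild type. The 4 kidney tubule markers summed to between 118 and 222 CPM in fr105 mutants and between 112 and 225 CPM in wild type. Most of that sum was *slc20a1a*, with a mean of 154 CPM in fr105 mutants and 174 CPM in wild type. The muscle, lens and neuronal expression that the label implies is therefore not seen in these values. Nor is the larval globin expression that the labelled age of 5 dpf implies, in the 4 matched genes. The labelled tissue and age are kept below only as names, and the true source was not tested.

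Of the 9 tested NuRD genes, *rbb4* was higher in fr105 mutants, *mta3* was lower, and 7 passed the test in neither direction (adjusted p under 0.05, edgeR). Across all 16630 genes, 11.0% were called higher and 8.76% lower, so that 1 of 9 in each direction is close to the background and is not a result about the complex as a whole. DESeq2 also called *rbb4* higher and *mta3* lower and no other member, with 11.7% of all the genes it tested called higher and 9.6% lower. An unadjusted edgeR p under 0.05 was reached by 3 of the 9 members (*rbb4*, *mta3* and *gatad2b*), against 35.7% of all genes tested. The groups did not overlap for 2 members that were higher in fr105 (*chd4b* and *rbb4*) and for 2 that were lower (*mta3* and *gatad2b*), against 21.3% and 20.6% of all genes tested. The median log2 fold change was 0.05 over the 9 members and -0.005 over all genes tested. The median absolute log2 fold change was 0.16 over the members and 0.32 over all genes, and 6 of the 9 members changed by less than that all-gene median. The members were also measured more precisely than most genes, with a median SE of 0.12, against 0.18 over all genes tested. In bulk RNA, fewer cells of a type and less RNA per cell cannot be told apart, which holds for every value below.

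**Figure D1:**
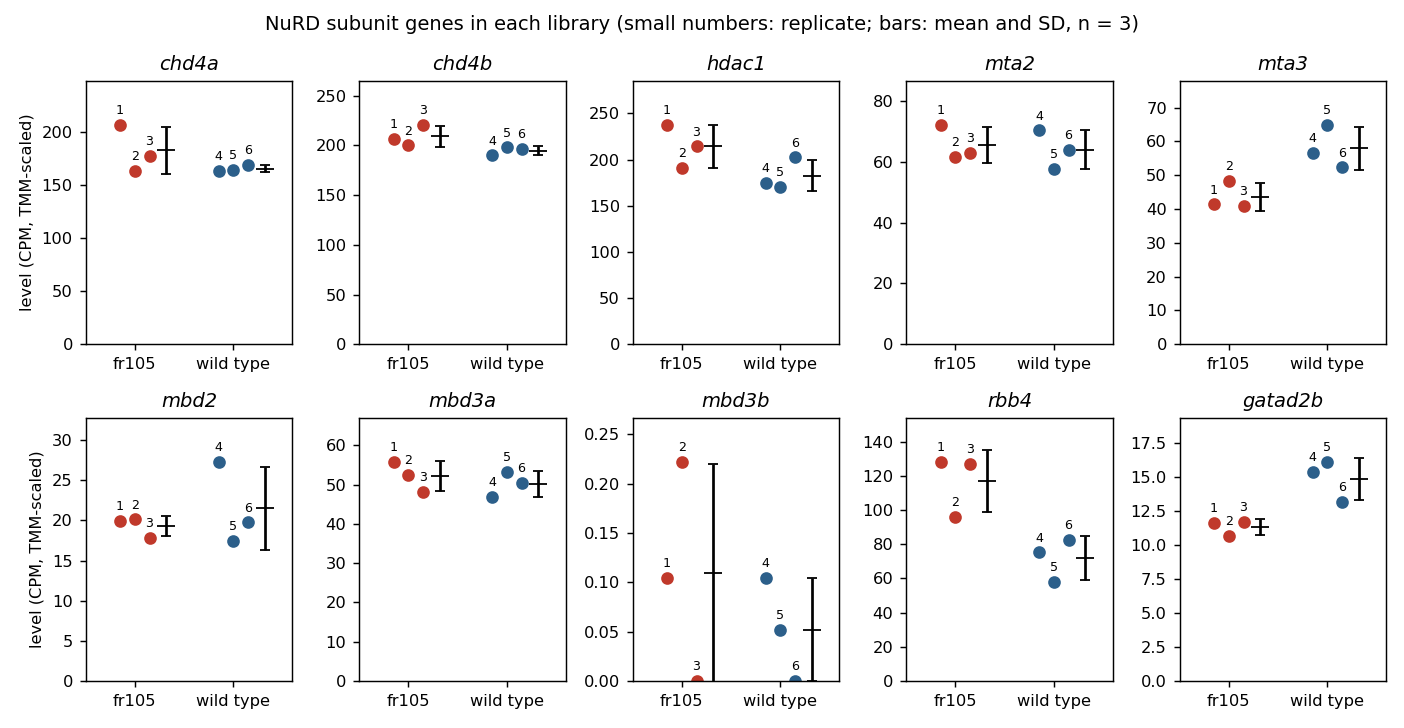
Level of each NuRD gene in the 3 fr105 libraries (red, left) and the 3 wild-type libraries (blue, right), in CPM after TMM scaling on axes that start at 0. Small numbers give the replicate and bars the mean and SD (n = 3). The groups separate upwards for *rbb4* and downwards for *mta3* and *gatad2b*, the narrow separation of *chd4b* is within its error, and *mbd3b* lies at or near 0 in every library.

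The ATPase of the complex is encoded by a pair of paralogues, *chd4a* and *chd4b*. *chd4a* (ENSDARG00000063535) stood at 206, 163 and 177 CPM in fr105 mutants, against 163, 164 and 169 CPM in wild type. Only fr105 replicates 1 and 3 lay above the wild-type libraries. The log2 fold change was 0.14 (SE 0.11, 95% confidence interval -0.12 to 0.40, edgeR adjusted p = 0.397). *chd4b* (ENSDARG00000025789) stood at 207, 200.0 and 221 CPM in fr105 mutants, against 190.0, 198 and 196 CPM in wild type. All 3 mutant libraries lay above all 3 wild-type libraries, by a margin smaller than the error of the fit, with a log2 fold change of 0.10 (SE 0.09, interval -0.11 to 0.32, edgeR adjusted p = 0.461). For both genes the interval leaves room for a rise of up to 1.32-fold (*chd4a*) and 1.25-fold (*chd4b*), and a larger one lies outside it.

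*hdac1* (ENSDARG00000015427) encodes the deacetylase. It was measured at 238, 191 and 214 CPM in fr105 mutants, against 175, 171 and 202 CPM in wild type. The groups overlapped, since wild-type replicate 6 lay above fr105 replicate 2. The mean was 214 ± 23.1 CPM in fr105 mutants and 183 ± 17.1 CPM in wild type (SD, n = 3 each), which is a 1.17-fold difference with an interval of 0.968 to 1.42 (log2 fold change 0.23, SE 0.12, edgeR adjusted p = 0.209).

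Of the scaffold genes, *mta3* was called lower and *mta2* was not called. *mta3* (ENSDARG00000054903) stood at 41.4, 48.2 and 41.0 CPM in fr105 mutants, against 56.5, 64.9 and 52.3 CPM in wild type. The groups did not overlap, and the gene was 1.33-fold lower in fr105 (log2 fold change -0.41, SE 0.12, interval -0.68 to -0.14, edgeR adjusted p = 0.0438). The call is marginal. It was lost without fr105 replicate 1 (edgeR adjusted p = 0.137), fr105 replicate 3 (0.150), wild-type replicate 4 (0.0783) or wild-type replicate 5 (0.129), and without the low-count filter (0.0571), while the log2 fold change stayed between -0.49 and -0.32 whichever library was left out. *mta2* (ENSDARG00000013031) stood at 72.2, 61.6 and 62.9 CPM in fr105 mutants, against 70.4, 57.7 and 64.1 CPM in wild type. The groups overlapped, with a log2 fold change of 0.03 (SE 0.11, interval -0.22 to 0.29, edgeR adjusted p = 0.856).

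The Mbd genes encode the subunits that tie NuRD to methylated DNA (Mbd2) or take their place in the complex (Mbd3). *mbd2* (ENSDARG00000075952) stood at 19.9, 20.1 and 17.9 CPM in fr105 mutants, against 27.3, 17.4 and 19.8 CPM in wild type. Wild-type replicate 4 was far above the other 5 libraries, the wild-type libraries bracketed all mutant ones, and the log2 fold change of -0.16 (SE 0.17, interval -0.55 to 0.24, edgeR adjusted p = 0.548) became 0.055 without that library. *mbd3a* (ENSDARG00000061774, listed under the symbol MBD3) stood at 55.9, 52.4 and 48.1 CPM in fr105 mutants, against 46.8, 53.3 and 50.5 CPM in wild type, again overlapping (log2 fold change 0.05, SE 0.10, interval -0.18 to 0.29, edgeR adjusted p = 0.730). The second copy, *mbd3b* (ENSDARG00000061810), had 4, 8 and 0 counts in fr105 mutants, against 4, 2 and 0 counts in wild type. It is the only member that did not pass the low-count filter, and at this depth no difference was detectable.

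*gatad2b* (ENSDARG00000005834), the linker between the Mbd protein and the ATPase, was measured at 11.6, 10.7 and 11.7 CPM in fr105 mutants, against 15.4, 16.1 and 13.2 CPM in wild type. All 3 mutant libraries lay below all 3 wild-type libraries and close to each other, with means of 11.3 ± 0.585 CPM in fr105 mutants and 14.9 ± 1.54 CPM in wild type (SD, n = 3 each). The log2 fold change of -0.39 (SE 0.13, interval -0.68 to -0.11) was of nearly the size seen for *mta3* and narrowly missed the threshold (edgeR adjusted p = 0.0603, unadjusted p = 0.0136).

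*rbb4* (ENSDARG00000029058), the gene of the histone chaperone subunit, differed most among the members. It stood at 128, 96.0 and 127 CPM in fr105 mutants, against 75.2, 58.0 and 82.6 CPM in wild type. The lowest mutant library was above the highest wild-type library, and the means were 117 ± 18.2 CPM in fr105 mutants and 71.9 ± 12.6 CPM in wild type (SD, n = 3 each). This is a 1.63-fold rise (interval 1.25 to 2.12; log2 fold change 0.70, SE 0.17, edgeR adjusted p = 0.0221). Of all genes tested, 23.5% had a larger absolute log2 fold change. The call was lost without fr105 replicate 1 (edgeR adjusted p = 0.0811), fr105 replicate 3 (0.0759) or wild-type replicate 5 (0.0547), with log2 fold changes between 0.57 and 0.83 over the libraries left out. DESeq2 gave an adjusted p of 0.0011 with all libraries.

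**Figure D2:**
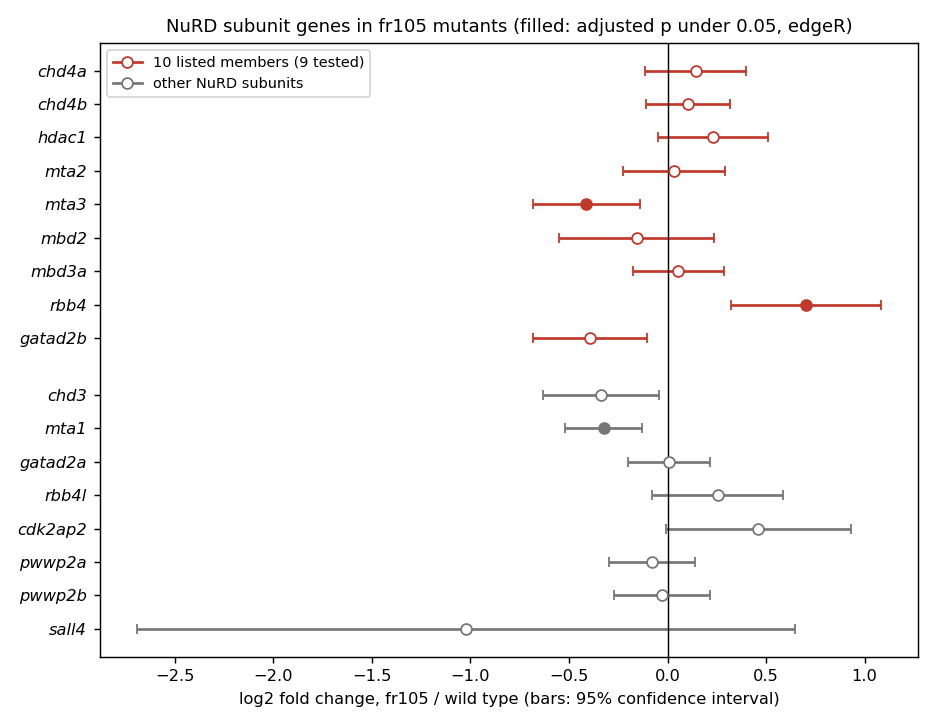
Log2 fold change (fr105 over wild type) of the 9 tested NuRD members (red) and of 8 further genes of NuRD subunits or NuRD-associated proteins (grey), with 95% confidence intervals from the edgeR fit over all genes. Filled points passed an adjusted p of 0.05, namely *rbb4* at 0.70, *mta3* at -0.41 and *mta1* at -0.32, and the interval of *sall4*, with at most 20 counts per library, is the widest.

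Which library was extreme was shared by several members. Of the 9 tested members, 5 were highest in fr105 replicate 1 (*chd4a*, *hdac1*, *mta2*, *mbd3a* and *rbb4*), and 4 were lowest in wild-type replicate 5 (*hdac1*, *mta2*, *mbd2* and *rbb4*). The same shares over all genes tested are not given here, so these counts cannot be read as a trait of NuRD genes. Both members that were lower in every mutant library, *mta3* and *gatad2b*, were highest in wild-type replicate 5. The summed level of the 10 members was 980, 844 and 920 CPM in fr105 mutants, against 820, 800 and 850 CPM in wild type. The sums averaged 915 ± 68.3 CPM in fr105 mutants and 823 ± 25.0 CPM in wild type (SD, n = 3 each), and the mean of their log2 values was higher in fr105 by 0.15, but fr105 replicate 2 lay below wild-type replicate 6 and the difference did not pass a two-sided exact permutation test (p = 0.2, where 0.1 is the smallest that 3 against 3 can give).

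The share of each member in these summed counts, which carries no test, was apart between the groups for *rbb4*, *mta3* and *gatad2b*. The levels of these genes in CPM were apart too, so the shares are not a separate result. No such share exists for genes outside the list, so no background can be set beside it. Shares of a common total depend on each other, so a larger share of *rbb4* by itself makes the other shares smaller. *rbb4* took 13.1%, 11.4% and 13.8% of the summed member counts in fr105 mutants, against 9.17%, 7.25% and 9.72% in wild type. *mta3* took 4.79% ± 0.804 in fr105 mutants, against 7.05% ± 0.987 in wild type, and *gatad2b* took 1.24% ± 0.0445 in fr105 mutants, against 1.81% ± 0.240 in wild type (n = 3 each, SD). The shares of the ATPases were close to each other between groups, at 19.9% in fr105 mutants and 20.1% in wild type for *chd4a* and at 22.9% in fr105 mutants and 23.7% in wild type for *chd4b*.

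Ratios between subunits that can replace each other were compared within each library, where library scaling cancels. The log2 ratio of *mta2* to *mta3* was 0.80, 0.35 and 0.62 in fr105 mutants, against 0.32, -0.17 and 0.29 in wild type. All mutant libraries lay above all wild-type libraries, and the ratio was 1.36-fold higher in fr105 (exact permutation test, two-sided, p = 0.1 and thus at the lowest value that the design allows, adjusted p = 0.4 over the 4 ratios compared). The log2 ratio of *chd4a* to *chd4b* was -0.00, -0.29 and -0.32 in fr105 mutants, against -0.22, -0.27 and -0.22 in wild type, and the groups overlapped with a difference of 0.03 (exact p = 1, adjusted p = 1). The log2 ratio of *mbd2* to summed *mbd3a* and *mbd3b* was -1.49, -1.39 and -1.43 in fr105 mutants, against -0.78, -1.61 and -1.35 in wild type, a difference of -0.19 (exact p = 0.7, adjusted p = 0.933). That of *mbd3a* to *mbd3b* rests on at most 8 counts of *mbd3b* per library and differed by -0.63 (exact p = 0.6, adjusted p = 0.933), which says little at this depth.

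3 further ratios were chosen after their values were seen and carry no test. The log2 ratio of *gatad2b* to its paralogue *gatad2a* was -2.11, -2.16 and -2.10 in fr105 mutants, against -1.76, -1.52 and -1.88 in wild type. The log2 ratio of *rbb4* to its paralogue *rbb4l* was 0.08, 0.17 and 0.40 in fr105 mutants, against -0.11, -0.44 and -0.18 in wild type, so that *rbb4* had more counts than *rbb4l* in each mutant library and fewer in each wild-type library. The linear ratio of *rbb4* to *hdac1* was 0.540, 0.502 and 0.592 in fr105 mutants, against 0.430, 0.340 and 0.408 in wild type. In all 3 the groups were apart. Reads of paralogues that are alike in sequence could have been divided between copies or dropped in counting, so these ratios are less certain than the counts of single genes.

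**Figure D3:**
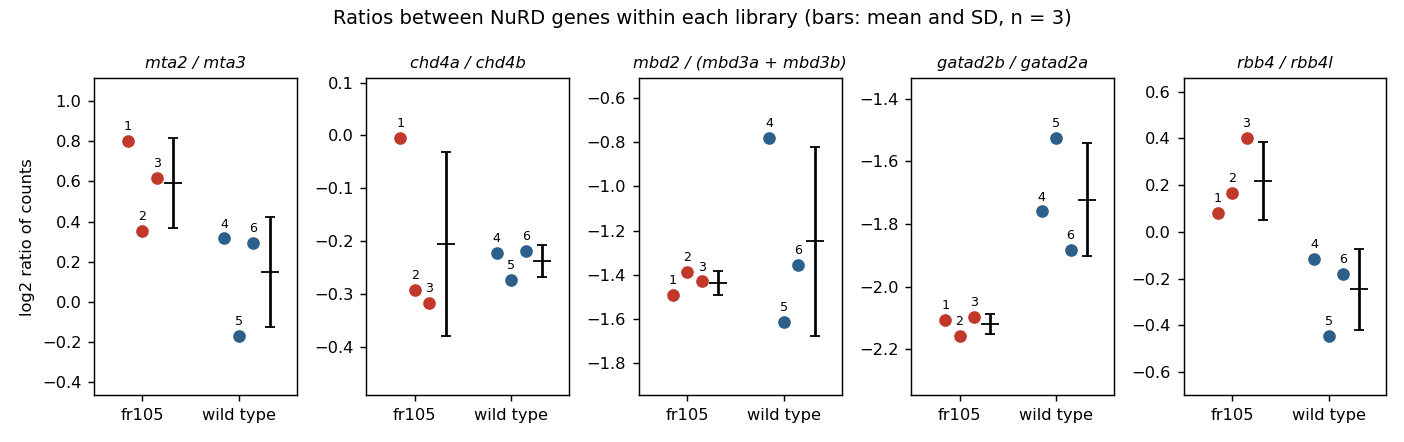
Log2 ratio of the counts of 2 genes (or of 1 gene and a sum of 2) within each library, for fr105 (red, left) and wild type (blue, right), with the mean and SD (n = 3) and the replicate number. The groups are apart for *mta2* over *mta3*, *gatad2b* over *gatad2a* and *rbb4* over *rbb4l*, and overlap for *chd4a* over *chd4b* and for *mbd2* over the Mbd3 genes. The ratios over *gatad2a* and *rbb4l* were chosen after their values were seen and carry no test. The compared ratio of *mbd3a* to *mbd3b* is not shown. Each axis has its own range.

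The histone chaperone encoded by *rbb4* is also part of other complexes, among them the assembly factor CAF-1, which deposits histones behind the replication fork. A list of S phase and mitosis genes was read from the same fit, and a link between their levels and that of *rbb4* was not tested. Of the 18 matched genes of that list, 11 were higher in fr105 mutants and none lower (edgeR adjusted p under 0.05), against 11.0% of all genes tested called higher and 8.76% lower. All 18 had a positive log2 fold change, and their median was 0.58, against -0.005 over all genes tested. The gene with the smallest adjusted p was *tyms*, which encodes thymidylate synthase, at 46.6 ± 5.78 CPM in fr105 mutants and 22.0 ± 6.48 CPM in wild type (SD, n = 3 each; log2 fold change 1.08, SE 0.21, edgeR adjusted p = 0.00937). The summed level of the list was 2115, 1789 and 2113 CPM in fr105 mutants, against 1329, 1145 and 1587 CPM in wild type. This sum had the same order of libraries as *rbb4*, and the share of all genes with that order is not given here. Relative to this sum, which does not include it, *rbb4* stood at 5.81% ± 0.388 in fr105 mutants, against 5.31% ± 0.309 in wild type (n = 3 each, SD). The groups overlapped here, with 5.37% in fr105 replicate 2 and 5.66% in wild-type replicate 4. The count of 11 depended on single libraries, being 1 when either fr105 replicate 1 or 3 was left out, 4 when wild-type replicate 4 was, and 3 when wild-type replicate 5 was. It was 7 under upper quartile scaling or with library size only, and 16 with DESeq2, which called 11.7% of all the genes it tested higher.

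Markers of blood lineages differed between the groups as well, in a fit that called 11.0% of all genes tested higher and 8.76% lower. The 7 B cell markers summed to between 203 and 233 CPM in fr105 mutants and between 471 and 754 CPM in wild type, with 6 of 7 called lower and a median log2 fold change of -2.15. Their sum was highest in wild-type replicate 5, the library in which *mta3* and *gatad2b* were highest too. In wild-type replicates 4 and 6 the B cell sum was nearly the same (471 and 476 CPM), while both genes were lower in replicate 6. Most of that sum was *ighm* (251 and 219 CPM) and *btk* (128 and 118 CPM). The other B cell markers, *cd79a*, *cd79b*, *pax5*, *cd37* and *ebf1a*, were all higher in replicate 6 than in replicate 4, so the equal sums do not show equal B cell content. The 8 T cell markers summed to between 106 and 177 CPM in fr105 mutants and between 299 and 328 CPM in wild type, with 5 called lower. Most of that sum was *ccr9a*, with a mean of 115 CPM in fr105 mutants and 253 CPM in wild type. The paper lists this gene for B cells as well. The markers not called were *cd4-1*, *cd8a* and *zap70*. Of 7 erythroid markers 3 were called higher, with a median log2 fold change of 0.81. Without wild-type replicate 6, or without any one of the fr105 libraries, none was called and the median was 0.78 to 0.89, whereas 6 were called without wild-type replicate 4 and 5 with DESeq2 or without the low-count filter. The 4 thrombocyte markers summed to between 189 and 265 CPM in fr105 mutants and between 54.4 and 134 CPM in wild type, with 2 called higher. The 6 neutrophil markers summed to between 34886 and 44687 CPM in fr105 mutants and between 19082 and 32677 CPM in wild type, with 1 called in each direction. Of 5 macrophage markers 2 were called higher, *marco* (mean 221 CPM in fr105 mutants, 82.6 CPM in wild type) and *csf1ra* (59.2 and 38.6 CPM). The sums of all 5 overlapped (1542 to 1787 CPM in fr105 mutants and 1486 to 1762 CPM in wild type). Most of these sums was *cd74a* and *cd74b*, which the paper finds high on B cells as well. Of 5 stem and progenitor markers 1 was called higher, and none of 3 liver or 4 kidney tubule markers was called by edgeR with all libraries. DESeq2 called 1 liver marker, and edgeR called 1 of them higher without wild-type replicate 4 and 1 lower without wild-type replicate 5. The part of these cell types and of dividing cells in the levels of *rbb4*, *mta3* and *gatad2b* was not tested.

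**Figure D4:**
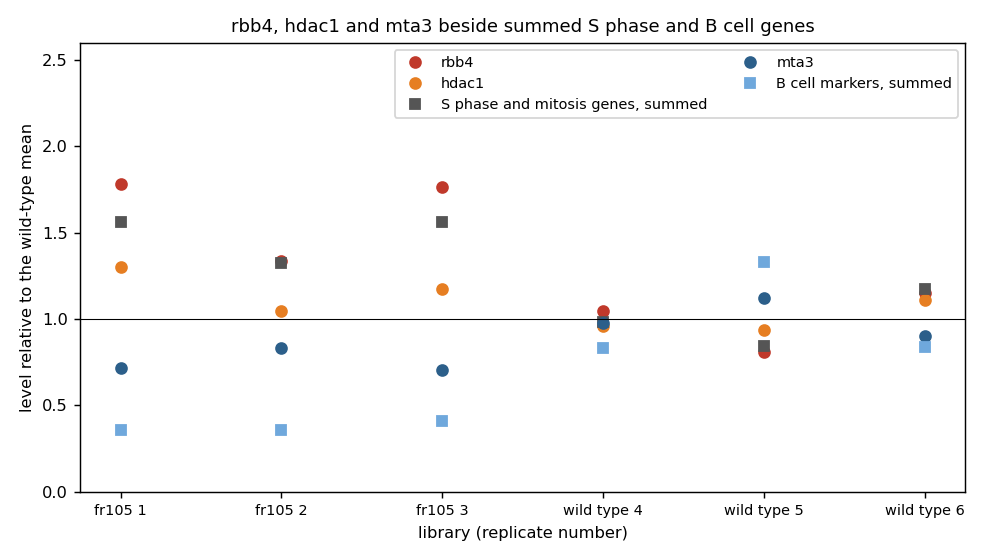
Level of *rbb4*, *hdac1* and *mta3* (circles) and summed level of the S phase and mitosis genes and of the B cell markers (squares) in each library, divided by the wild-type mean of the same item (axis from 0, wild-type mean at 1). *rbb4* and the S phase sum are above 1.3 in all 3 fr105 libraries, *mta3* lies between 0.707 and 0.833 and the B cell sum between 0.358 and 0.411 there.

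Further genes of NuRD subunits and of NuRD-associated proteins that were not among the 10 members were read from the same fit. Of 8 tested genes 1 was lower and none higher (edgeR adjusted p under 0.05; 8.76% of all genes were lower and 11.0% higher), 3 with log2 fold changes above 0 and 5 below, with a median of -0.05. DESeq2 called 1 of them as well. The groups did not overlap for *mta1* and *chd3*, lower in fr105, and for *cdk2ap2*, higher in fr105, against 20.6% and 21.3% of all genes. The lower one was *mta1*, another scaffold gene of the same family, with 29.2, 29.6 and 28.6 CPM in fr105 mutants, against 36.0, 36.7 and 36.6 CPM in wild type. These libraries agree closely within each group and do not overlap between groups (log2 fold change -0.32, SE 0.09, edgeR adjusted p = 0.0330), yet the call was lost in each of the 6 fits that left out 1 library (adjusted p between 0.0688 and 0.122) and without the low-count filter. *chd3*, a second ATPase gene, had a log2 fold change of -0.34 (edgeR adjusted p = 0.0994), and *cdk2ap2*, which encodes a small NuRD-associated protein, one of 0.46 (interval -0.01 to 0.93, edgeR adjusted p = 0.146). *gatad2a*, the paralogue of *gatad2b*, was at 49.2 ± 1.48 CPM in fr105 mutants and 49.0 ± 2.82 CPM in wild type (SD, n = 3 each; log2 fold change 0.01, edgeR adjusted p = 0.970). *rbb4l*, the paralogue of *rbb4*, was at 101 ± 18.4 CPM in fr105 mutants and 84.6 ± 7.89 CPM in wild type (SD, n = 3 each), with overlapping libraries and a log2 fold change of 0.25 (interval -0.08 to 0.59, edgeR adjusted p = 0.244).

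The complexes that share *hdac1* or *rbb4* with NuRD were counted in the same fit, in which 11.0% of all genes were called higher and 8.76% lower. With 1 call per direction at most in Sin3, PRC2, CAF-1 and NURF, these lists are near that background, and the genes named below are single calls rather than results about a complex. Of 14 tested genes of the Sin3 complex 1 was higher and 1 lower (median log2 fold change -0.12). The lower one was *ing1*, which encodes a reader of methylated histone H3, at -0.66 (SE 0.13, edgeR adjusted p = 0.0114, lost without fr105 replicate 3), and the higher one was a copy of SAP130 (ENSDARG00000079352) at 0.55 (SE 0.13, edgeR adjusted p = 0.0205, kept in 2 of the 6 fits that left out a library). Of 10 tested genes of the Polycomb complex PRC2 1 was higher and 1 lower (median -0.21). These were a copy of SUZ12 (ENSDARG00000070256) at 0.37 (edgeR adjusted p = 0.0479) and *phf19*, a Polycomb-like subunit, at -1.02 (edgeR adjusted p = 0.0347), and each call was kept in 1 of those 6 fits. The SUZ12 call was also lost under upper quartile scaling, with library size only, without the low-count filter and with a mean of at least 50 counts. The list of 7 genes for CAF-1 and the remodeller NURF also holds *baz1a* and *baz1b*, which are subunits of neither. In this list 1 gene was higher, namely *chaf1b*, a partner of *rbb4* in CAF-1, at 0.76 (SE 0.22, edgeR adjusted p = 0.0452, kept in 1 of 6 fits and lost under upper quartile scaling or with library size only). The list median of 0.16 is the value of *baz1b*.

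Of the 8 genes of CoREST, a corepressor complex with *hdac1* and the demethylase Kdm1a, 2 were higher and 1 lower (median 0.05). For this list and the next 2, the shares over all genes tested were 11.0% called higher and 8.76% called lower. *rcor2*, one of its scaffold genes, had 827, 690 and 789 counts in fr105 mutants, against 90, 31 and 66 counts in wild type. The difference of 3.72 on the log2 scale (SE 0.32, edgeR adjusted p = 0.000224) stayed past the threshold in all 6 fits that left out a library. The lower gene was a copy of PHF21A (ENSDARG00000006878), with at most 21 counts in fr105 mutants and at most 77 counts in wild type (log2 fold change -1.98, edgeR adjusted p = 0.0383, kept in 2 of 6 fits). Among 7 genes of the CtBP and NCoR corepressors, which also work with histone deacetylases, *ctbp2a* was the 1 called, with 112, 143 and 129 counts in fr105 mutants, against 332, 289 and 294 counts in wild type (log2 fold change -1.15, SE 0.18, edgeR adjusted p = 0.0036, kept in all 6 fits). Its list had a median of -0.11. Of the 10 histone deacetylase genes outside NuRD none was called by edgeR or DESeq2, and the median was -0.07. An unadjusted edgeR p under 0.05 was reached by 3 of the 10, against 35.7% of all genes tested.

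**Figure D5:**
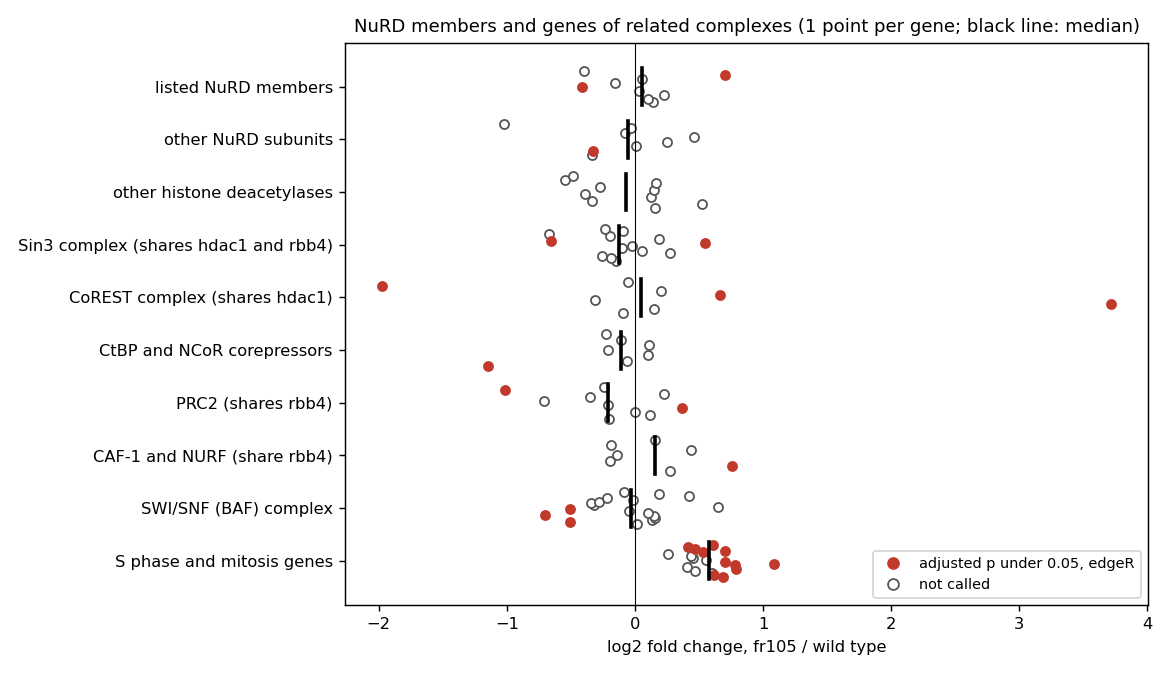
Log2 fold change (fr105 over wild type) of each tested gene in the NuRD list and in 9 further lists, with the median of each list as a black bar. Filled red points passed an adjusted p of 0.05 (edgeR, over all genes). The listed NuRD members lie between -0.41 and 0.70 with a median of 0.05, the 18 S phase and mitosis genes are all above 0, and the point farthest right is *rcor2* of CoREST at 3.72.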

How the data were processed

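The authors aligned paired reads from stranded poly-A libraries to the Ensembl Zv10.85 (GRCz10) zebrafish reference with STAR 2.5.2b-1 and counted them per gene with featureCounts 1.6.0.1. The deposited values are raw counts with no normalization. Even numbers made up 78.0% to 79.9% of the counts between 1 and 4, a pattern that counting each mate of a pair would give. The strand setting of the counting is not given in the sources used here, so a gene that overlaps another on the opposite strand is less certain.

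Groups follow the genotype that the labels give each sample. Counts were fitted in R 4.3.3 with edgeR 4.0.16 (scaling by TMM, the filterByExpr filter with a minimum count of 10 and a total of 15, quasi-likelihood F test, two-sided, Benjamini-Hochberg adjustment over all genes tested, threshold 0.05). The SE of a log2 fold change is its absolute value over the square root of F. Ratios used counts plus 0.5 and were compared, like the summed level, by two-sided exact permutation tests. TMM factors ranged from 0.984 to 1.02, and no 2 libraries agreed within sampling noise (smallest chi-square per gene 48.0). The precision of each value is given by its SE or SD over 3 libraries.

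The members and lists were chosen with earlier results of these data known. Named are all members, *ikzf1*, the gene with the smallest adjusted p in each direction among those called in each list of complexes or of S phase and mitosis genes, and each called gene among the other NuRD and NuRD-associated genes. Markers of cell types are given as counts and sums. *chd3*, *cdk2ap2*, *gatad2a*, *rbb4l*, *sall4*, *baz1a*, *baz1b*, *hbaa1*, *hbba1* and *slc20a1a* are named outside that rule, after their values were seen. So are the B cell, T cell and macrophage markers that are named singly. A table of gene names paired 26269 of the 32105 genes, *rbb4* was matched as a RefSeq synonym, *chd4a* through the supplementary tables, and *mbd3a* as the MBD3 gene other than *mbd3b*. Listed genes without a single matching ID were not analysed here. These were *hdac2*, *cdk2ap1*, *zmynd8*, *hdac7a*, *sap30*, *ctbp1*, *ctbp2l*, *smarca4a*, *dpf2*, *mcm6*, *rrm2* and some of the cell type markers. The alternatives tried were DESeq2 1.42.0, other scalings (RLE, upper quartile, library size), other filters (none, or a mean of 50 counts or more), the robust fit, a threshold of 0.01, 5 counts added to ratios, and each library left out. The fits were tested on simulated data. Tables were made with Python 3.11.15 and pandas 2.3.3, and figures with matplotlib 3.10.9.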

Additional observations from a re-analysis of the deposited data

How the results depend on the processing

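Of 117 recomputed log2 fold changes of single members, 103 kept their direction and their side of the threshold. With an adjusted p of 0.01 the calls over all genes were 1399, against 3291 at 0.05, and no member was called in either direction (0 higher, 0 lower). Under upper quartile scaling 2 members were called lower, since *gatad2b* passed (log2 fold change -0.44, edgeR adjusted p = 0.0410), and *mta2* turned to -0.013. Without a low-count filter 0 members were called lower (*mta3* at -0.40, edgeR adjusted p = 0.0571).

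Leaving out each library in turn gave 1927 (without fr105 replicate 3) to 2837 calls over all genes, 1938 without fr105 replicate 1 and 2152 without wild-type replicate 5. It gave 0 to 1 member called higher and 0 to 2 called lower. The log2 fold change ranged from 0.57 to 0.83 for *rbb4*, from -0.49 to -0.32 for *mta3*, from -0.48 to -0.33 for *gatad2b* (past the threshold without wild-type replicate 6, edgeR adjusted p = 0.0491), from -0.038 to 0.11 for *mta2* (below 0 without fr105 replicate 1 or wild-type replicate 5), and from -0.28 to 0.055 for *mbd2* (above 0 without wild-type replicate 4). The log2 difference in the ratio of *chd4a* to *chd4b* ranged from -0.067 (without fr105 replicate 1) to 0.090, that of *mbd2* to the Mbd3 genes from -0.37 to 0.047 (without wild-type replicate 4), and that of *mbd3a* to *mbd3b* from -1.76 to 0.31 (without wild-type replicate 6), with 0.20 without fr105 replicate 2. For *mta2* to *mta3* it ranged from 0.29 (without wild-type replicate 5) to 0.56. For the summed level of the members it ranged from 0.10 (without fr105 replicate 1) to 0.21. The cause of these changes was not tested. No paired analysis was possible because the groups share no replicate numbers.

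With 3 libraries per group a permutation test cannot give a two-sided p below 0.1. Both changes called among the members are under 2-fold. The edgeR adjusted p was 0.0221 for *rbb4* and 0.0438 for *mta3*, and DESeq2 gave 0.0011 and 0.0298. Some fits that left out a library lost these calls. The log2 fold changes stayed between 0.57 and 0.83 for *rbb4* and between -0.49 and -0.32 for *mta3*. Every such fit had fewer libraries and called fewer genes (1927 to 2837, against 3291). A lost call therefore cannot be assigned to the library left out. The counts of *mbd3b* are too low to compare.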

Other observations

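The SWI/SNF (BAF) complex, another ATP-dependent remodeller that shares no member with the NuRD genes listed, was read from the same fit. Of its 18 tested genes 3 were lower in fr105 mutants and none higher (edgeR adjusted p under 0.05), against 8.76% of all genes called lower, and their median log2 fold change was -0.03. The smallest adjusted p was that of *smarcd2*, a subunit needed for granulocyte development in mammals, with 4426, 4437 and 4194 counts in fr105 mutants, against 6178, 7188 and 6512 counts in wild type. Its log2 fold change was -0.51 (SE 0.10, edgeR adjusted p = 0.0107), and the call was kept in all 6 fits that left out a library. The count of 3 was 1 without fr105 replicate 3, and 2 without fr105 replicate 2, wild-type replicate 5 or wild-type replicate 6, and it was 5 with DESeq2, under upper quartile scaling or with library size only.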
